A study of Mus musculus with 6 samples.

Results

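Numbered zinc finger protein genes, those whose mouse symbol is Zfp followed by a number, were measured by RNA-seq in the mouse lung carcinoma cell line Lewis after 24 hours with SD70 or with its vehicle, DMSO. SD70 is a small-molecule inhibitor of KDM4C, an enzyme that removes methyl groups from histone H3 at lysines 9 and 36. A gene was a member if its symbol was of this form, Zfp36 left aside because it encodes an RNA-binding protein of another class, and if its deposited read count averaged at least 50 over the 6 samples. This rule chose 286 of the 338 numbered Zfp genes listed, among 16081 genes in all. Each group held 3 samples of the same cell line, DMSO 1 to 3 and SD70 1 to 3, and no source used here gives the SD70 dose for this experiment. The study's methods state in general that experiments were independently repeated, but neither they nor the labels say of these samples whether each was a separate culture, so p-values measure the spread between these samples, which may be technical. The labels name a cell line, yet their extraction protocol is worded for tissue.

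Most of these genes encode proteins with tandem C2H2 zinc fingers, small loops held by a zinc ion that bind DNA or, in some members, RNA or other proteins. Many also carry a KRAB box, a short domain that binds the corepressor TRIM28 (KAP1). TRIM28 brings in the methyltransferase SETDB1, which places the H3K9me3 mark that KDM4 enzymes erase, so KRAB zinc finger proteins are best known for silencing retroelements and for keeping imprinted regions methylated. Many of the genes lie in clusters that grew by duplication, where neighbours can be close to identical. The comparison asked whether the transcripts of this family changed with SD70, and whether they moved apart from other genes of similar count.

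The members were chosen by name and by their mean count over both groups, not by their difference, but the family was picked for description after an earlier analysis of the same samples. Counts and medians over it are therefore given as a description. Just inside the minimum were Zfp300, Zfp667 and Zfp94, with mean counts of 50.3, 51 and 57.2. Just outside were Zfp619, Zfp428 and Zfp575, with 47.7, 48 and 49.5. Of the 52 listed genes below the minimum, 25 still had enough counts to be tested. All 286 members passed the filter on low counts, which used all 6 samples and kept 11552 genes. The totals ran from 15276744 to 17060424 counts per sample. The members took a small share of each library, 0.885%, 0.895% and 0.855% of all counts in DMSO 1 to 3 and 1.05%, 0.984% and 1% in SD70 1 to 3. Every SD70 sample lay above every DMSO sample in this share, and SD70 1 was the highest.

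Lewis cells had high levels of Vim (2127 FPKM, fragments scaled by transcript length and library size) and Krt8 (122 FPKM), while the epithelial genes Krt19, Epcam and Cdh1 averaged less than 1 count. Of the 9 genes listed for lung epithelium or carcinoma, 4 were tested. The keratins Krt18 (log2 fold change -1.22) and Krt8 (-0.55) and the mesenchymal gene Vim (-0.47) were lower with SD70. Napsa was not called (-0.06). Ptprc, which marks white blood cells, averaged 0.833 counts. Cd79a, Lyz2 and Cdh5 were the tested markers of B cells, myeloid cells and endothelium, none of them called, with log2 fold changes of -0.79, 0.79 and 0.14. The part of these changes in the results below was not tested.

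The members rose more often than they fell. At an adjusted p under 0.01 in the quasi-likelihood test of edgeR, with Benjamini-Hochberg adjustment over all 11552 genes, 126 of the 286 were called higher with SD70 (44.1%), against a background of 25.8% of all genes tested. Another 40 were called lower (14%), against 24.2% of all genes, and 120 were not called. The median log2 fold change of the members was 0.20, with quartiles of -0.09 and 0.49. That of all genes tested was -0.00. In these bulk samples, more cells that express a gene and more RNA per cell cannot be told apart.

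The shift was made of small changes. With a minimum log2 fold change of 1 as well, 13 of the 286 members were called higher (background 3.29% of all genes tested). That count was 7 with offsets for GC content and transcript length, 8 with limma on log2(FPKM + 0.1) and 2 with limma on log2(FPKM + 1). None passed the threshold downwards (background 2.61%) in the same edgeR fit at any p, since the lowest member stood at -0.93, and 1 did with those offsets or without SD70 replicate 1. Of the 9984 other genes with a mean count of at least 50, 270 passed upwards and 164 downwards in the main edgeR fit. In 150 members the 3 SD70 samples all lay above the 3 DMSO samples (background 32.8%), and in 50 they all lay below (background 31.6%). An exact permutation test of 1 gene cannot give a p below 0.1 with 3 samples against 3, so the test of each gene is the fit over all genes.

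**Figure D1:**
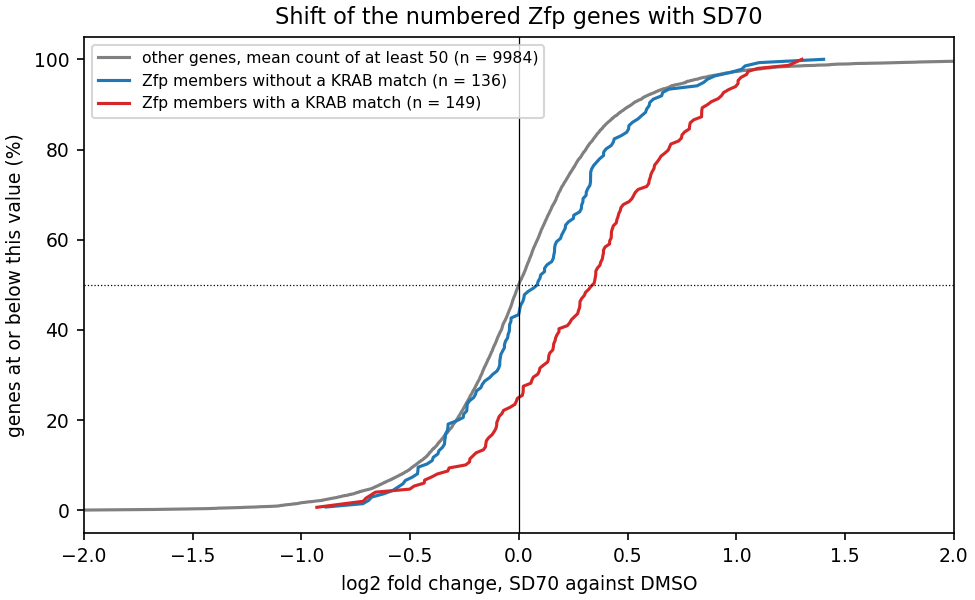
Cumulative share of genes (vertical axis, percent) at or below each log2 fold change of SD70 against DMSO (horizontal axis, shown from -2 to 2), for 149 members with a KRAB match, 136 members without one and 9984 other genes with a mean count of at least 50. At 50% the curve of the members with a KRAB match lies to the right of the others. It crosses 50% at 0.35, that of the members without a match at 0.09 and that of the other genes at -0.00. The order is not the same at the far ends.

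Genes of similar count did not show the same median. Among genes with mean counts from 50 to 200, the median log2 fold change was 0.02 for 93 members and -0.07 for other genes. From 200 to 500 counts it was 0.25 for 99 members and -0.01 for the others, and from 500 to 1000 counts it was 0.33 for 55 members and 0.02 for the others. At 1000 counts and over it was 0.17 for 39 members and 0.01 for the others. From the lowest to the highest of these ranges, 26.9%, 48.5%, 60% and 51.3% of the members were called higher, against 16.7%, 25.4%, 28.3% and 31.5% of the other genes. Per transcript length the members were low, with a median of 5.77 FPKM against 16.4 FPKM for other genes with at least 50 counts, and 78 of the 286 reached 10 FPKM.

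The 10 largest rises and 10 largest falls were taken from called members whose groups did not overlap. Separation of their groups was thus a condition of the choice. The largest rise was that of Zfp639. This C2H2 protein of 9 fingers, encoded on chromosome 3 of GRCm38, had normalised read counts (put on the average effective depth of the libraries) of 584, 624 and 594 in DMSO 1 to 3. In SD70 1 to 3 the values were 1560, 1536 and 1665, so that the groups lay far apart. The mean went from 601 ± 21.3 to 1587 ± 68.3 (SD, n = 3 each), or by 1.40 ± 0.0598 on the log2 scale (estimate and standard error, edgeR's adjusted p = 2.53e-20).

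Zfp599 and Zfp936, both with a KRAB match, came next at lower counts. Zfp599 had normalised counts of 103, 106 and 94 under DMSO and 289, 221 and 237 after SD70, 2.46-fold higher (edgeR's adjusted p = 1.34e-11). Zfp936 had 44.5, 43.7 and 44.6 in DMSO and 115, 95.9 and 112 in SD70 (log2 fold change 1.27). For both genes no SD70 sample came near a DMSO sample. Zfp599 overlaps Zfp809 on chromosome 9 in RefSeq, so their reads could be hard to assign, although both had whole counts. Zfp809 encodes a KRAB protein known to silence murine leukaemia proviruses, and its counts of 236, 221 and 240 went to 439, 354 and 408 (log2 fold change 0.78, adjusted p = 2.53e-09 from edgeR).

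Of the other large rises, Zfp655, Zfp110 and Zfp131 were well covered. Zfp655 had 1334, 1302 and 1321 normalised counts under DMSO and 2705, 2703 and 2809 under SD70 (log2 fold change 1.05). Zfp110, which encodes a protein that binds the neurotrophin receptor p75, went from 887, 930 and 869 to 1895, 1723 and 1907 (log2 fold change 1.04). Zfp131, a BTB-domain transcription factor, went from 1835, 1855 and 1785 to 3877, 3463 and 3796 (log2 fold change 1.02, adjusted p = 4.24e-18 from edgeR). In all 3 genes the SD70 samples stood far above the DMSO samples, with folds of 2.08, 2.06 and 2.03. Zfp647, Zfp623, Zfp979 and Zfp959 completed the 10 largest rises, with log2 fold changes of 1.24, 1.10, 1.10 and 1.05. Of these 10 genes, 6 had a KRAB match and 4 had counts that were not whole numbers.

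The falls were smaller. Zfp949, a KRAB gene on chromosome 9, fell from 274, 222 and 228 normalised counts with DMSO to 149, 114 and 117 with SD70 (-0.93 ± 0.116 on the log2 scale, estimate and standard error, adjusted p = 2.02e-08 from edgeR). Zfp526, without a KRAB match, fell from 259, 235 and 247 to 118, 151 and 132 (log2 fold change -0.89). For both genes the highest SD70 sample stayed well below the lowest DMSO sample. Zfp651 and Zfp9 each fell by 0.72 on the log2 scale, from means of 301 and 525 to 183 and 319 normalised counts. Zfp667 stood near the count minimum, at 80.9, 54.4 and 58.5 in DMSO and 40.6, 37.7 and 30.8 in SD70 (log2 fold change -0.82). Its adjusted p of 5.57e-04 from edgeR became 0.0119 without DMSO replicate 1. The other 5 of the 10 largest falls were Zfp30, Zfp579, Zfp324, Zfp775 and Zfp954, with log2 fold changes from -0.70 to -0.66. Zfp579 went from -0.69 to -0.42 with offsets for GC content and transcript length and was then not called (adjusted p = 0.0251 from edgeR). Of the 10 falls 6 had a KRAB match, the same number as among the 10 rises.

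**Figure D2:**
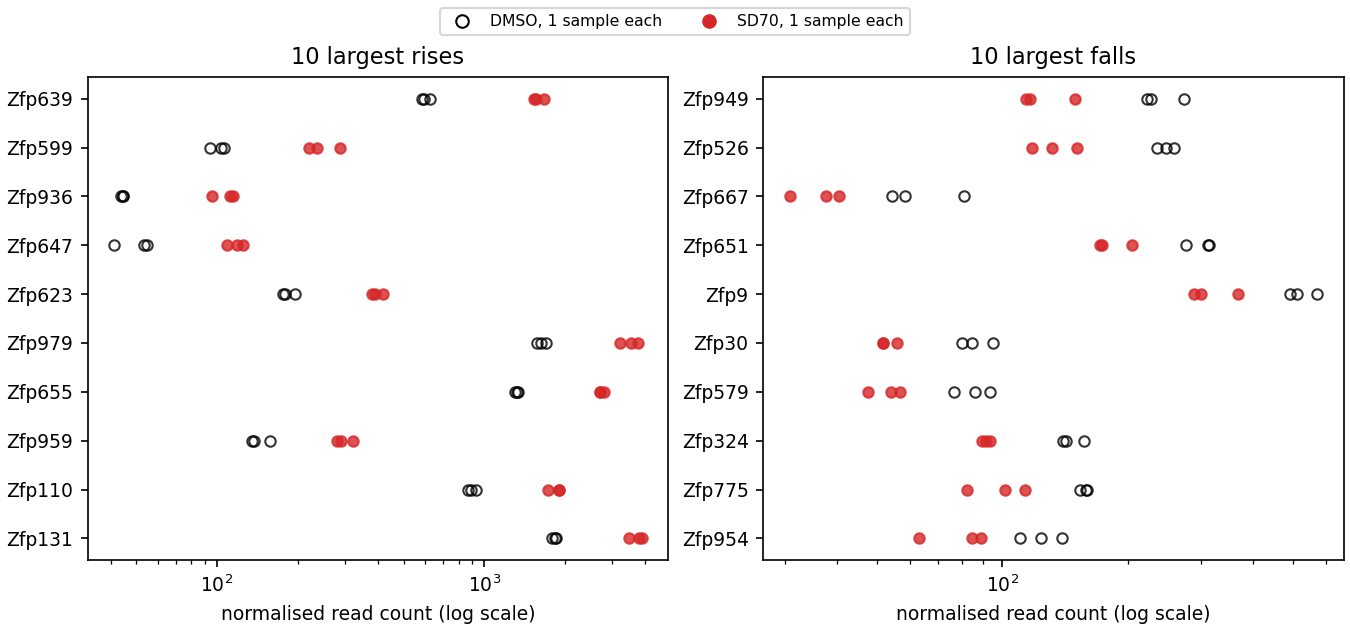
Normalised read counts (horizontal axes, log scale) of the 10 members with the largest rises (left) and the 10 with the largest falls (right) among members called at an adjusted p under 0.01 with groups that do not overlap. Each open circle is 1 of 3 DMSO samples and each filled circle 1 of 3 SD70 samples. The 2 groups stand apart in every row, as the choice required, from Zfp639 at 1.40 to Zfp949 at -0.93 on the log2 scale.

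Of the 5 members with the highest FPKM, 2 were among the 10 largest rises and the other 3 had log2 fold changes from -0.07 to 0.17. Zfp207 (BuGZ), a spindle checkpoint protein, was highest at 122 FPKM, with 4578, 4788 and 4698 normalised counts in DMSO 1 to 3 and 5232, 4904 and 4815 in SD70 1 to 3. Its log2 fold change of 0.09 was not called (adjusted p = 0.123 from edgeR). Zfp91, a ubiquitin ligase at 48.2 FPKM, had a log2 fold change of 0.17 (adjusted p = 0.00381 from edgeR), a call that 5 of the 6 fits without 1 sample did not keep. Zfp277 at 47.6 FPKM, a partner of Polycomb proteins, had -0.07 and was not called, but with the GC and length offsets it was called lower at -0.21 (adjusted p = 2.48e-04 from edgeR). Zfp979 and Zfp131, next after Zfp207 at 67.0 and 56.6 FPKM, were the 2 with large rises.

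Members that act on RNA, ribosomes or ubiquitin, 15 in number, held 9 called genes, each of them higher (60%, background 25.8%), and had a median log2 fold change of 0.30. Zfp598, the ubiquitin ligase that marks collided ribosomes, had 1344, 1294 and 1248 normalised counts in DMSO and 2246, 2257 and 2589 in SD70 (0.87 on the log2 scale, adjusted p = 6.52e-15 from edgeR). Zfp593, a factor in the making of the large ribosomal subunit, went from 269, 300 and 317 to 490, 516 and 593 (log2 fold change 0.85). Zfp346, which binds double-stranded RNA, went from 401, 409 and 384 to 630, 684 and 793 (log2 fold change 0.82). In all 3 genes SD70 3 was the highest sample, and no SD70 sample came near the DMSO samples. Zfp451, which attaches SUMO chains, rose by 0.40 on the log2 scale.

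Members known as transcription factors or chromatin cofactors, 21 in number, had 8 called higher (38.1%, background 25.8%), 7 called lower (33.3%, background 24.2%) and a median log2 fold change of 0.02. Zfp217, a cofactor of the repressors CoREST and CtBP, fell from 1466, 1351 and 1267 to 914, 884 and 857 (log2 fold change -0.62, adjusted p = 8.16e-11 from edgeR). Zfp687 fell by 0.49 on the log2 scale, while Zfp592 and Zfp532, which bind it in 1 complex, rose by 0.28 and 0.29. Zfp746 (PARIS), a repressor of the PGC-1alpha gene, rose from 383, 379 and 381 to 580, 541 and 596 (log2 fold change 0.59). Zfp410, the activator of Chd4, rose by 0.31 on the log2 scale, while Chd4 itself fell by 0.44. Zfp687, Zfp592, Zfp532 and Zfp410 were set side by side after their values were seen.

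Members known for imprints or retroelements, 8 in number, held 7 called genes, each of them higher (87.5%, background 25.8%), and had a median log2 fold change of 0.74. Zfp57, which with TRIM28 guards methylation at imprinted regions, had 373, 313 and 288 normalised counts in DMSO and 447, 423 and 476 in SD70 (log2 fold change 0.47). Zfp568, which silences a placental Igf2 promoter, went from 330, 448 and 420 to 628, 645 and 672 (log2 fold change 0.70). Zfp708 rose at a low level, from 65.4, 76.7 and 53.7 to 143, 123 and 109 (log2 fold change 0.94). The groups did not overlap in any of these 3 genes. Zfp445, the other guardian of imprints, was the 1 not called, at 0.08 on the log2 scale (adjusted p = 0.2 from edgeR). Of the 8 genes, 4 had counts that were not whole, and all but Zfp445 had a KRAB match. The list includes Zfp600 and Zfp990 of the chromosome 4 cluster, and its median GC content was 40.5%. It thus overlaps the KRAB, low GC and cluster groups described below and is not separate from them.

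In the fit without offsets for GC content, members with a KRAB match had a higher median than those without, and with such offsets the medians lay close together (0.18 and 0.11). A match to the end of KRAB box A was found in the encoded protein of 149 of the 285 members with a coding transcript. It is a strict match, which the known KRAB protein Zfp445 did not meet. Of the 149, 78 were called higher (52.3%, background 25.8%) and 15 lower (10.1%, background 24.2%), with a median log2 fold change of 0.35. Of the 136 without a match, 47 were called higher (34.6%) and 25 lower (18.4%), with a median of 0.09. The KRAB members took 0.325%, 0.332% and 0.312% of all counts in DMSO 1 to 3 and 0.440%, 0.399% and 0.402% in SD70 1 to 3, with SD70 1 the highest.

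The number of fingers went with the fold change only in part. Members with 0 fingers or with 1 or 2 had medians of 0.01 and 0.02, those with 3 to 6, 7 to 10 and 11 to 14 had 0.16, 0.20 and 0.18, and the 62 with 15 or more had 0.29. Members close to another numbered Zfp gene, 196 in number, had a median of 0.25, and the 90 that stood alone had 0.12. Among KRAB members alone, however, the 20 that stood alone had a median of 0.40 and the 129 in clusters one of 0.31. These groups were not tested against each other.

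GC content and shared reads moved with these groups. The median GC content of the members' transcripts was 43.7%, that of all genes tested 50.1%, that of the members with a KRAB match 40.3% and that of those without 49.6%. It was 50.6% for members with 0 fingers and 40.1% for those with 15 or more. Clustered members had 41.7% and those that stood alone 48.4%. Over all other genes, low GC went with a rise. In the lowest GC sixth, up to 43.4%, 36.8% of other genes were called higher and 13.5% lower, and in the highest, from 56.6%, 13.9% were higher and 38.1% lower. Within the lowest sixth the median log2 fold change was 0.34 for 136 members and 0.11 for the other genes, and it was 0.36 for the 103 members there with a KRAB match (58.3% called higher) and 0.25 for the 33 without (48.5%). The median was higher with a match than without in 5 of the 6 bins, some of them with few members. Between 50.1% and 53.3% GC the order was the other way, with a median of -0.24 for 10 members with a match and 0.16 for 19 without. In the highest sixth it was -0.10 for 33 members and -0.17 for the other genes. With offsets for GC content and transcript length in the fit, the median of members with a KRAB match went from 0.35 to 0.18 and that of members without from 0.09 to 0.11. Calls of a rise went from 78 to 62 of the 149 with a match and from 47 to 53 of the 136 without. In all 115 members were then called higher and 37 lower (background 27.4% and 24.2%).

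**Figure D3:**
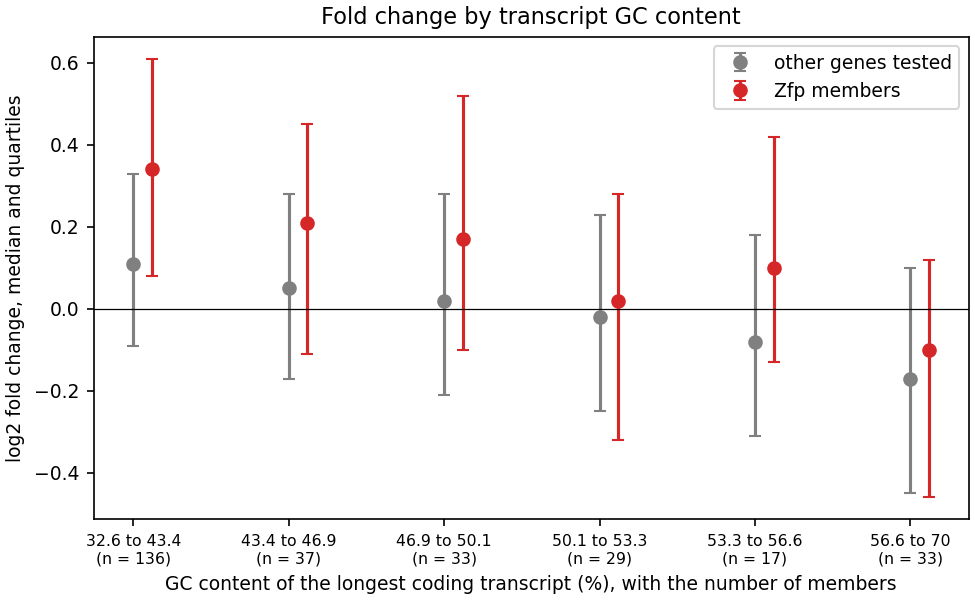
Median log2 fold change of SD70 against DMSO (vertical axis, points) with its quartiles (bars) in 6 bins of transcript GC content (horizontal axis, percent), for members and for other genes tested. Both medians are lower at high than at low GC content, though that of the members goes from 0.02 to 0.10 between neighbouring bins. They run from 0.34 and 0.11 in the lowest bin to -0.10 and -0.17 in the highest, with the members above the other genes in each bin.

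Counts that are not whole, as estimated where reads match more than 1 gene, were found in 72 members. Of these, 45 were called higher (62.5%, background 25.8%) and 5 lower (6.94%, background 24.2%), with a median log2 fold change of 0.38. Of the 214 members with whole counts, 81 were called higher (37.9%) and 35 lower (16.4%), with a median of 0.15. Their part, and that of GC content, in the difference between the groups was not tested.

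The members lay on 20 chromosomes. Chromosome 7 held the most, 69, of which 26 were higher and 12 lower, with a median log2 fold change of 0.16. On chromosome 4 the median over 18 members was 0.74, with 14 higher (77.8%, background 25.8%). On chromosome 2, 4 of 17 members were higher (23.5%) and 5 lower (29.4%), near the background of 25.8% and 24.2%. Gene clusters differed in their medians. Among 13 clusters with at least 5 members, the median log2 fold change ran from -0.20 to 0.84. The highest was a cluster on chromosome 4 (GRCm38, chr4:145510759-147849126), where all 12 members were called higher, all 12 had a KRAB match and all 12 had counts that were not whole. On chromosome 17 (chr17:21383707-23599755), 14 of 22 members were higher and 1 lower, Zfp52, with a median of 0.43. A second cluster on the same chromosome (chr17:32765496-33110707), with 6 KRAB genes of 7 and a median GC content of 40.5%, had a median of -0.10. Its members summed to 4013, 3974 and 3770 normalised counts in DMSO and 3165, 3133 and 3214 in SD70, and its 2 called members, Zfp871 and Zfp763, were lower with log2 fold changes of -0.43 and -0.37. Those 2 are 28.6% of its members, close to the background of 24.2%, and most of the difference in the sum was that of Zfp871, with means of 2670 and 1978 normalised counts. On chromosome 7 (chr7:29768552-30169775), 9 of 14 members were higher and 2 lower. On chromosome 13 (chr13:67038594-67827000), 7 of 15 members were called, each of them higher. The clusters, and the members named from them, were chosen after the values were seen.

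**Figure D4:**
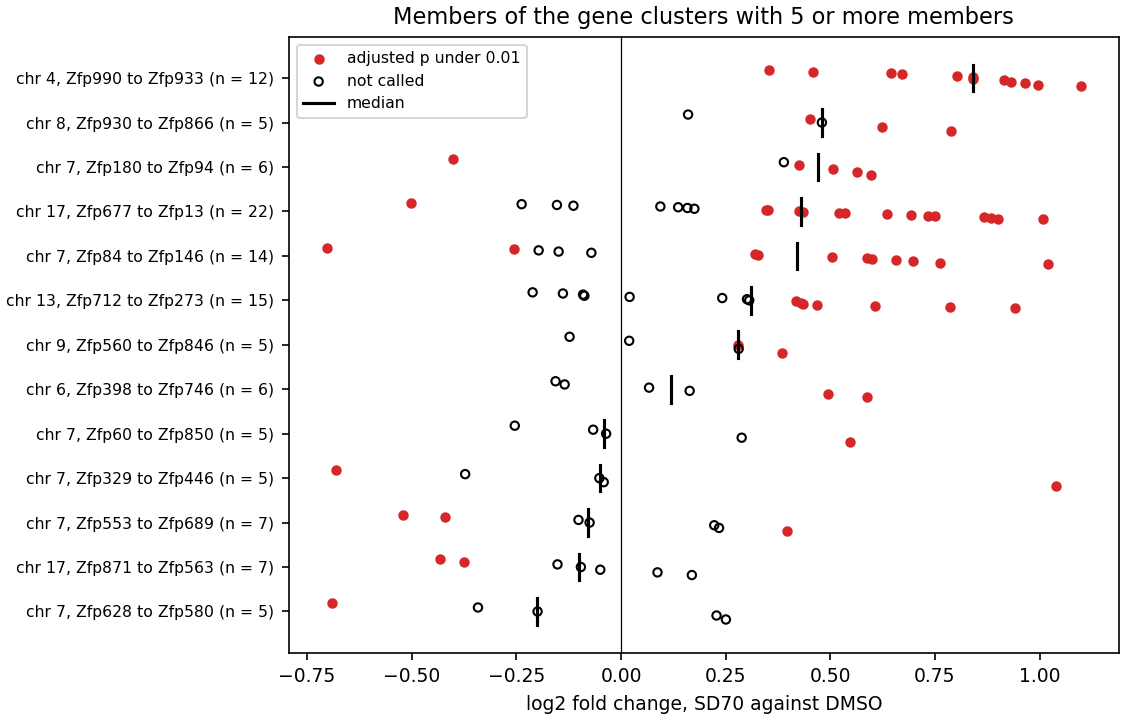
Log2 fold change of SD70 against DMSO (horizontal axis) for each member of the 13 gene clusters with 5 or more members, ordered by median (vertical bars), with called members as filled points and the others as open circles. The chromosome 4 cluster stands at the top, all 12 members between 0.35 and 1.10, and the cluster of Zfp871 to Zfp563 on chromosome 17 has its median at -0.10.

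The chromosome 4 cluster is a group expanded in mice and linked to silencing of endogenous retroviruses. Its summed normalised counts were 8934, 9105 and 8615 in DMSO 1 to 3 and 17366, 15043 and 15635 in SD70 1 to 3, a log2 ratio of 0.85. A sum over the cluster does not depend on how shared reads were split among its own members. Zfp979, with 3 matching fingers, was the most abundant and rose most, from 1576, 1702 and 1630 to 3758, 3214 and 3543 normalised counts (log2 fold change 1.10, adjusted p = 3.67e-18 from edgeR). Zfp600 went from 1624, 1638 and 1407 to 3391, 2883 and 3038 (log2 fold change 1.00). SD70 1 was the highest sample for both genes, and no sample of either group overlapped the other group.

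The smallest rises of the cluster were at its distal end. Zfp984 went from 1393, 1377 and 1357 to 2110, 1782 and 1780 normalised counts (log2 fold change 0.46). Zfp933 went from 352, 348 and 384 to 461, 485 and 437 (log2 fold change 0.35, adjusted p = 1.80e-04 from edgeR, and 0.0136 with the GC and length offsets). Between these rises and those of Zfp979 and Zfp600 lay Zfp987 and Zfp992 at 0.64 and 0.67, then Zfp990, Zfp534 and Zfp980 at 0.80, 0.84 and 0.84, and Zfp985, Zfp981 and Zfp991 at 0.92, 0.93 and 0.96. With the GC and length offsets the cluster's median went from 0.84 to 0.61.

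**Figure D5:**
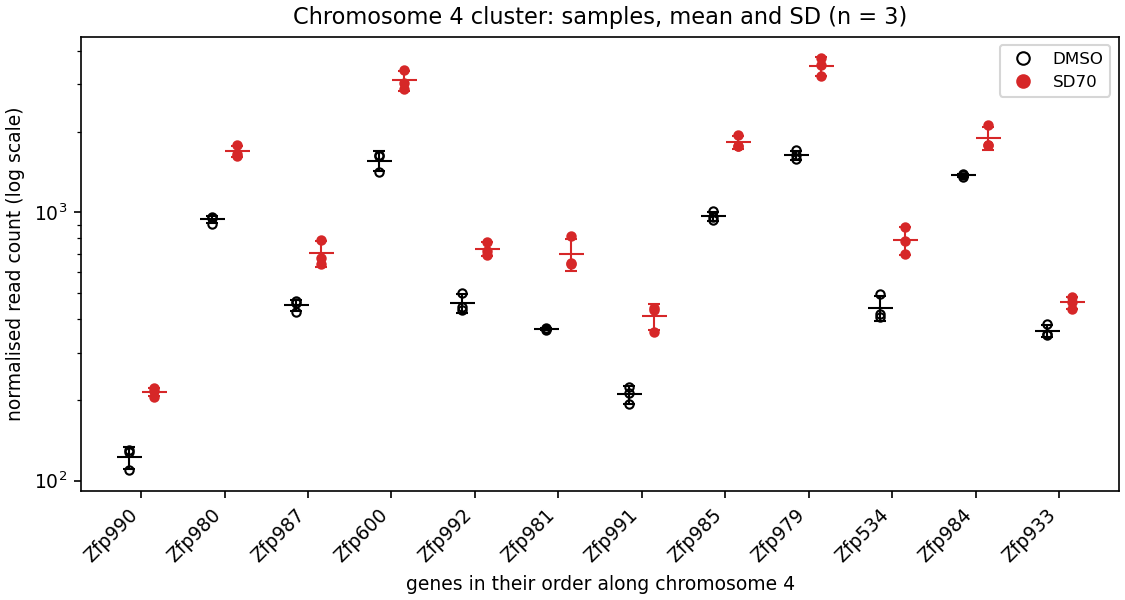
Normalised read counts (vertical axis, log scale) of the 12 members of the chromosome 4 cluster in their order along the chromosome (horizontal axis), with each sample as a point and the mean and SD of 3 samples as bars. In all 12 genes the SD70 samples lie above the DMSO samples, with the narrowest gaps at Zfp984 and Zfp933.

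The sequences before the cluster's start sites are shown because all its members rose. RefSeq lists a promoter for 9 of the 12. The 250 bases before the listed start of Zfp979 and Zfp600, the largest rises, and of Zfp984 and Zfp933, the smallest, follow from GRCm38.p6, 5′ to 3′ on the gene's strand. Capitals mark the motifs CCAAT and ACTACAA on either strand (ATTGG and TTGTAGT where reversed).
Zfp979, chr4:147642509-147642758, minus strand: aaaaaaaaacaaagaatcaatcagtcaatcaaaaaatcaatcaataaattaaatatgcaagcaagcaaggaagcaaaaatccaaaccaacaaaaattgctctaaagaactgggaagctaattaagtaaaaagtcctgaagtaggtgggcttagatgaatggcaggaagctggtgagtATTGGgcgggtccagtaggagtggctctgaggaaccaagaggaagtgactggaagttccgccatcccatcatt
Zfp600, chr4:146156577-146156826, plus strand: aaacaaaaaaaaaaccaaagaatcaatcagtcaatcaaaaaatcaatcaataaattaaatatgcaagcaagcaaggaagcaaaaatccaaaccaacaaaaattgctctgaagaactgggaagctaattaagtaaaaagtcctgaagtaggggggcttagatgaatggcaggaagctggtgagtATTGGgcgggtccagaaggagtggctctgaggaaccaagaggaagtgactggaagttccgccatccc
Zfp984, chr4:147809789-147810038, minus strand: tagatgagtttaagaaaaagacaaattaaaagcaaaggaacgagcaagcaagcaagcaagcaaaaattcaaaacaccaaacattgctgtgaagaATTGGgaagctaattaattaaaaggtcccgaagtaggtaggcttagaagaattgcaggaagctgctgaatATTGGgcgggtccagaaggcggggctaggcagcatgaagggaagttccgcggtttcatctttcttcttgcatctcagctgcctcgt
Zfp933, chr4:147848419-147848668, minus strand: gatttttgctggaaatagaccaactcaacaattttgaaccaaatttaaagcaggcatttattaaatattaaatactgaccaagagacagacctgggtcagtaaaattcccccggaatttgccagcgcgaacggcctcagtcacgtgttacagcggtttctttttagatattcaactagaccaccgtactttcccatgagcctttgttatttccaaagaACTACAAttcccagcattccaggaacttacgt

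Zfp979 and Zfp600 were identical at 96.4% of 250 aligned bases. Among the 8 of these genes other than Zfp933, the 28 pairs were identical at 69.2% to 96.4% of bases, with a median of 79.2%. Zfp933 matched those 8 at 56.8% to 60.0%, and the unrelated Zfp639 on chromosome 3 matched the 9 at no more than 53.2%. Of the 9 sequences 8 held CCAAT or its reverse, and in 6 the reverse ran into the motif GGGCGG, as ATTGGGCGG. For Zfp981, Zfp984 and Zfp933 the listed start lies inside the RefSeq gene, 12920, 2441 and 708 bases from its 5′ end. The sequences and the identity were chosen after the values were seen.

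Motifs were counted over all members with a listed promoter, 289 promoters of 238 genes, each from 250 bases before to 50 after the start. CCAAT on either strand was found in 50.5% of the members' promoters, in 61.3% for members with a KRAB match and in 38% for those without, against 38.6% for all genes tested. It was found in 52.2% of the promoters of members called higher and in 57.5% of those of members called lower. The motif GGGCGG was found in 44.6% of the members' promoters and in 62.7% of those of all genes tested. TATAAA was found in 6.92% and 6.86%, CCGGAAGT in 10.4% and 8.48%, the NRF1 motif in 9% and 10.2%, and ACTACAA in 6.57% and 4.29%. GGGCGG can overlap CCAAT on the reverse strand, as above. The median GC content of these promoters was 54.3% for members and 60.7% for all genes tested. It was 52% for members with a KRAB match and 60.7% for those without. The part of base composition in the motif shares was not tested.

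Other zinc finger genes were counted in the same fit. Of 51 genes with a KRAB match and other names, 28 were called higher (54.9%, background 25.8%) and 1 lower (1.96%, background 24.2%), with a median log2 fold change of 0.36, but 42 of them had counts that were not whole. In 85 genes of the Zbtb, Zscan, Zkscan and Klf families and of Zfp symbols that end in a letter, 35 were higher (41.2%) and 13 lower (15.3%), with a median of 0.18. The 51 had a mean count of at least 50, as the members did, while the 85 had only passed the filter on low counts. The sets overlap, since lettered genes with a KRAB match, such as Zfp119a, are in both. The 34 Zbtb genes had a median of 0.10 and the 11 Klf genes one of 0.65. The shift of the members was thus not shown to be particular to their name, and no test of the difference between families was made.

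Of 38 tested genes for corepressors, H3K9 methylation and its removal, 7 were higher (18.4%, background 25.8%) and 10 lower (26.3%, background 24.2%). Trim28 and Setdb1 had log2 fold changes of -0.03 and 0.03 and were not called. Kdm4c, the gene of the enzyme that SD70 targets, had 753 ± 34.6 normalised counts in DMSO and 765 ± 34.2 in SD70 (SD, n = 3 each). Of its relatives, Kdm4a rose by 0.95 and Kdm4b fell by 0.65 on the log2 scale. Smarcad1, Setdb2, Morc2a, Pphln1 and Hdac2 were also higher, by 0.57, 0.46, 0.37, 0.32 and 0.22. Suv39h1, Chd4 and Ehmt2 fell by 0.51, 0.44 and 0.40, and Ppm1d, Sin3a, Dnmt1, Arid4b, Chd3 and Cbx5 by 0.38 to 0.20 on the log2 scale.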

How the data were processed

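RNA-seq libraries of 6 samples of Lewis cells were grouped by their titles (3 DMSO, 3 SD70, 24 hours). The authors aligned BGISEQ-500 clean reads to GRCm38.p6 with HISAT. The submitters' processing notes name StringTie 1.3.3b and the build mm8, and the counting tool is not given in the sources used here. The authors deposited an expected count per gene, which is an estimated count that was not normalized, and a second value whose heading names no unit. That deposited value behaves as an FPKM. Between 8.84% and 9.28% of counts per sample were not whole.

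Counts were rounded, filtered by filterByExpr, scaled by TMM, with factors between 0.984 and 1.016, and put through the robust quasi-likelihood fit and F test of edgeR 4.0.16 (R 4.3.3), with Benjamini-Hochberg adjustment over 11552 genes and a threshold of 0.01. Methods were tested on simulated data. KRAB boxes (L[YF]..VM.E) and fingers were matched in translated GENCODE M21 coding transcripts, and clusters, GC content and length came from RefSeq and GENCODE. A member was clustered if another numbered Zfp gene was among the 5 nearest coding genes on either side.

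Alternatives were DESeq2 1.42.0, its size factors, library totals, 2 other filters, other count minimums, a replicate block, leaving out each sample, limma 3.58.1 on log2(FPKM + 1) and log2(FPKM + 0.1) and, chosen after seeing the data, offsets for GC content and length and leaving out the chromosome 4 cluster. The members, lists, tests and settings were all chosen with earlier results of these data known. Named members were the 10 largest rises and falls among called members with separate groups, the 5 of highest FPKM, those beside the count minimum, up to 4 of each function list by size and the called KRAB partners, of which 1 is not reported here. Members named outside this rule are said to be so, apart from Zfp57, Zfp568 and Zfp445 of the list on imprints and the chromosome 4 genes, which were also chosen after their values were seen.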

Additional observations from a re-analysis of the deposited data

How the results depend on the processing

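Precision is limited by 3 samples per group, by few counts in members near the minimum and by reads that near-identical members share. All 166 called members kept their call with the replicate number as a block, and 0 changed sign in the fits without 1 sample. With the replicate block 127 members were higher and 41 lower. Samples with the same number deviated together in 1 set of genes and not in others. Their correlations were 0.176, 0.254 and 0.157 over 9624 genes with a mean count of at least 100, which was looked at first, -0.0686, 0.0477 and 0.114 over all 11552, and 0.168, -0.0333 and -0.0361 over 6363 with at least 500. The numbers were then taken not to pair the samples, after the counts with the block had been seen.

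With only members with whole counts, 81 of 214 were called higher (37.9%), against 126 of all 286 (44.1%). Fewer members were then counted, and the 72 left out had been called higher more often (62.5%). The count with a log2 fold change of at least 1 went from 13 higher to 2 with log2(FPKM + 1), 8 with log2(FPKM + 0.1) and 7 with the GC and length offsets, with or without the block, and from 0 lower to 1 with those offsets, with or without the block. The median of the members went from 0.20 to 0.14 with log2(FPKM + 1) and 0.15 with whole counts only. The KRAB median went from 0.35 to 0.24 and 0.30 with log2(FPKM + 1) and log2(FPKM + 0.1), to 0.18 with the offsets, with or without the block, and to 0.28 without the chromosome 4 cluster. The median of clustered members went from 0.25 to 0.16 and 0.20 with log2(FPKM + 1) and log2(FPKM + 0.1) and to 0.17 with the offsets, with or without the block. The chromosome 4 median went from 0.84 to 0.80 with library totals, 0.77 with log2(FPKM + 1) and 0.61 with the offsets, with or without the block. Members of other families called lower went from 13 to 8 with DESeq2. The cause of these moves was not tested.

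Leaving out 1 sample at a time gave 107 to 120 members higher and 34 to 39 lower, 10 to 16 higher and 0 to 1 lower with a log2 fold change of at least 1 (the 1 without SD70 replicate 1), and a median of 0.18 to 0.23. It gave KRAB medians of 0.28 to 0.37, with the lowest without SD70 replicate 1, and chromosome 4 medians of 0.80 to 0.89. Of 688 values of 43 named members, 671 kept direction and side of the threshold, 13 lost the call, 2 gained it and 2 reversed, those of Zfp207 at -0.03 with the offsets, with or without the block. Zfp277 was called lower with the offsets (-0.21), and Zfp579 and Zfp933 were not called with them (-0.42 and 0.21).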
